A study of Mus musculus with 12 samples.

Results

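Genes that mark cells as macrophages were followed in macrophages sorted from the mouse joint lining (synovium) after exposure to calcitonin gene-related peptide (CGRP), a neuropeptide released by pain-sensing nerve fibres. The 9 genes were taken by symbol (*Adgre1*, *Csf1r*, *Mertk*, *Itgam*, *Maf*, *Spi1*, *Cebpb*, *Cd68* and *Lyz2*) out of 26699 gene symbols in the count files. The rule uses names and no measured value, but the genes were chosen with earlier results of these data known. Whole synovium of adult wild-type C57BL/6 mice was kept for 4 h with 100 nM CGRP or with control treatment and then digested with collagenase. MHC class II-positive cells were sorted into a CD11c-negative population, called IAIE after the class II antibody label, and a CD11c-positive population, called CD11c. Each of the 4 groups (IAIE control, IAIE CGRP, CD11c control and CD11c CGRP) held 3 libraries of total RNA, 12 in all. The labels do not say whether the 3 libraries of a group came from separate mice, so p-values measure the spread between these libraries, which may be technical. Tissue was treated whole before sorting, so the peptide reached every cell type of the explant.

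Macrophages are phagocytes that live in tissues or arise from blood monocytes, and they depend on signals through the CSF1 receptor for survival. Their identity is set by a small circuit of transcription factors. PU.1 (*Spi1*) opens myeloid enhancers, C/EBPβ (*Cebpb*) acts with it in differentiation and inflammatory responses, and c-MAF (*Maf*) restrains proliferation and supports the resident state. On the surface, F4/80 (*Adgre1*) is an adhesion G protein-coupled receptor used as the classical mouse macrophage marker, CD11b (*Itgam*) is the alpha chain of a complement-binding integrin, and MERTK is a receptor tyrosine kinase through which apoptotic cells are taken up. CD68 is a heavily glycosylated protein of late endosomes and lysosomes, and lysozyme 2 (*Lyz2*) is the bactericidal enzyme secreted by myeloid cells. In the synovium such cells form a lining layer at the joint cavity and an interstitial population around vessels, to which MHC class II-positive cells belong.

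The sequence just before the transcription start was available for 5 of the 9 genes in RefSeq (GRCm38.p6), namely *Mertk*, *Cebpb*, *Itgam*, *Lyz2* and *Cd68*. The 250 bases upstream of the start are shown for *Cd68* and *Mertk*, which were lower in CD11c than in IAIE control libraries, and for *Itgam*, for which no such difference was called. Capitals mark any match, on either strand, to 5 motifs: GAGGAA (a PU.1 core), TTGCNNAA (C/EBP), TGCTGA (a MAF recognition core), TGACGTCA (the cAMP response element) and TGANTCA (AP-1).
Cd68: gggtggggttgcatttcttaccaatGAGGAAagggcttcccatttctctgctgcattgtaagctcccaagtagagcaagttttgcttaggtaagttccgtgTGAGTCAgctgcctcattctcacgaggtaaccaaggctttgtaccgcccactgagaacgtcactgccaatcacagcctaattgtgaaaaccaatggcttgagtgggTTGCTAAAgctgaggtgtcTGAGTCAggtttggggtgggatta
Mertk: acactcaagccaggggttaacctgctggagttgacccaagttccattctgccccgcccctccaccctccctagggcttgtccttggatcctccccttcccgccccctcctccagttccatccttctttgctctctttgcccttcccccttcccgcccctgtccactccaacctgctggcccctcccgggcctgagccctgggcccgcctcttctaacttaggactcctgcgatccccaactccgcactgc
Itgam: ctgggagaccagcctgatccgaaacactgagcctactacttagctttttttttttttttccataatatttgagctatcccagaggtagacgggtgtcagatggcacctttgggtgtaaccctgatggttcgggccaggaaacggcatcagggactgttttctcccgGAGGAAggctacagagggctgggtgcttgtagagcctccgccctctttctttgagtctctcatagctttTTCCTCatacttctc
The *Cd68* stretch (chr11:69666171-69666420, minus strand) held 1 PU.1 core, 1 C/EBP motif and 2 AP-1 motifs. The *Itgam* stretch (chr7:128062390-128062639, plus strand) held 2 PU.1 cores, and the *Mertk* stretch (chr2:128698665-128698914, plus strand) held none of the 5 motifs. Of 32851 promoters of this length, 23.3% held the PU.1 core, 9.56% the C/EBP motif, 16.1% the MAF recognition core, 1.55% the cAMP response element and 6.75% the AP-1 motif. The *Lyz2* stretch held 1 MAF recognition core and that of *Cebpb* held no match. These matches were not tested as binding sites. The stretches differed in composition, with 49.2% G and C in *Cd68*, 49.6% in *Itgam* and 63.6% in *Mertk*.

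Libraries held between 2127191 and 5649698 counts, so 3 counts, taken as the floor of detection, corresponded to between 0.534 and 1.34 CPM (counts scaled to library size, with TMM factors). All 9 genes lay above that floor in all 12 libraries, and all 9 were among the 11927 genes that could be tested with edgeR. Together they took between 0.639% and 0.864% of the counts in control libraries, between 0.613% and 0.630% in IAIE CGRP libraries and between 0.433% and 0.493% in CD11c CGRP libraries. The sort was checked with *Itgax*, which encodes CD11c and averaged 6.19 CPM in IAIE control and 237 CPM in CD11c control libraries. Its log2 difference was 5.33 without CGRP and 4.44 with CGRP. *H2-Ab1*, an MHC class II chain, averaged 3896 CPM and 10590 CPM in the same control groups. The macrophage genes themselves were all present in both populations at the levels below. They are the genes under study, so their presence does not check the cell type label. Stromal markers varied between libraries of 1 group. The sum of 9 fibroblast markers (*Fn1* left out after its values were seen) reached 1383 CPM in IAIE control replicate 2 and 1572 CPM in IAIE CGRP replicate 1, against 54.2 to 394 CPM in the other IAIE and CD11c CGRP libraries and 26.9 to 36.3 CPM in CD11c control libraries. Most of the 1572 CPM was 1 gene, *Prg4*, at 1433 CPM, whereas *Col1a1* was at most 53.5 CPM in IAIE CGRP libraries.

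The levels of the 9 genes spanned a wide range when compared per length. Expressed as CPM per kilobase of exon (mean ± SD, n = 3, IAIE control), *Lyz2* came first with 2815 ± 534, followed by *Cd68* with 548 ± 24.3, *Cebpb* with 447 ± 38.6 and *Csf1r* with 249 ± 25.0. *Adgre1* reached 143 ± 19.1, *Spi1* 109 ± 8.84 and *Itgam* 36.1 ± 2.63. *Maf* with 17.0 ± 4.79 and *Mertk* with 9.95 ± 3.23 were the lowest of the 9. In that group the libraries of *Maf* and *Mertk* overlapped, from 11.5 to 19.9 and from 6.71 to 13.2 CPM per kilobase, whereas *Lyz2* lay far above every other gene. In CD11c control libraries *Cebpb*, with 392 ± 54.7 CPM per kilobase, stood above *Cd68*, with 269 ± 28.7, the reverse of their order in IAIE cells.

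**Figure D1:**
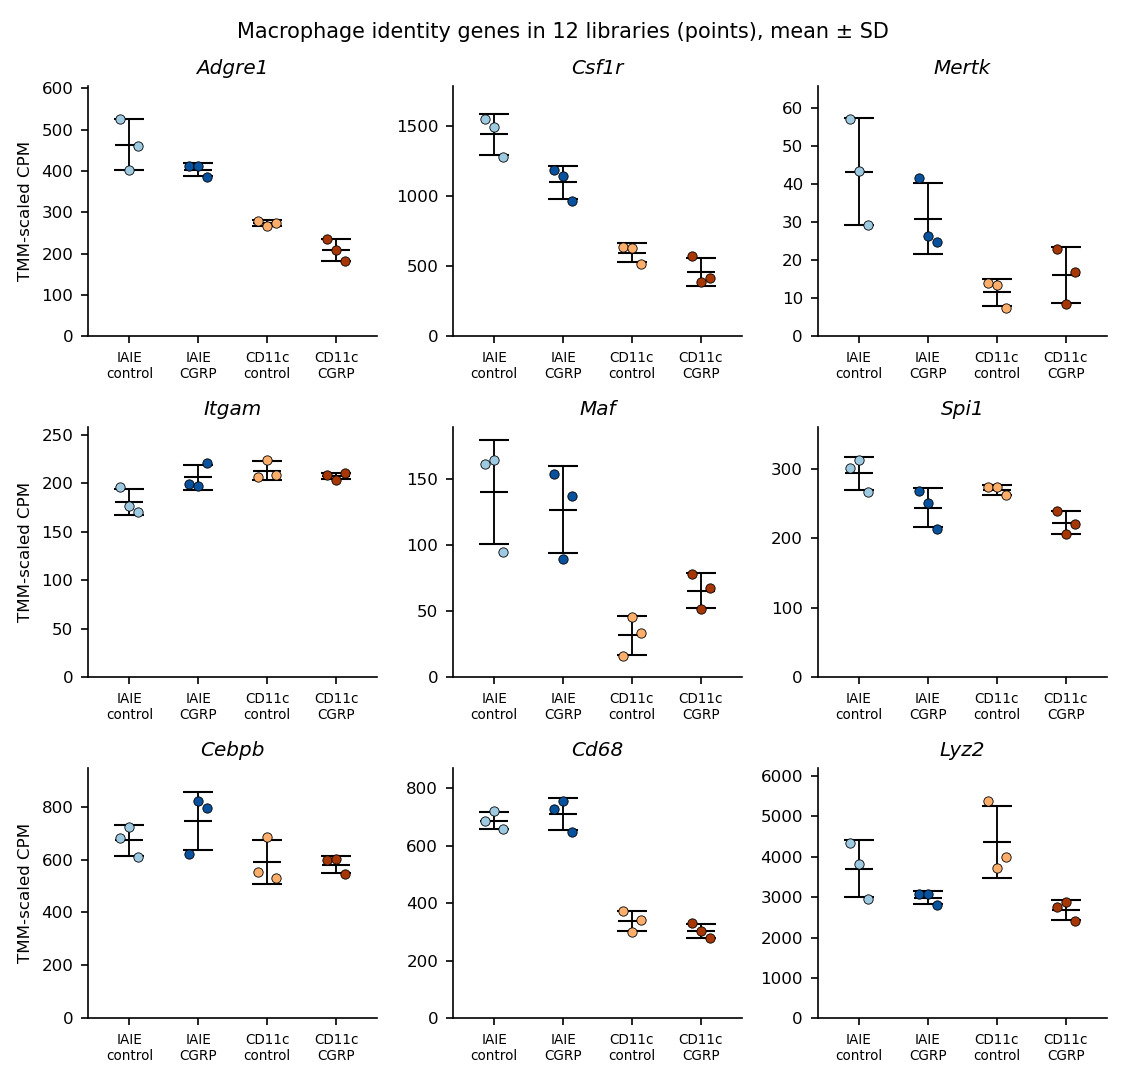
CPM (vertical axes, linear, from 0) of each gene in the 12 libraries, with 1 point per library and bars for the mean ± SD of 3 libraries in each of the 4 groups on the horizontal axis. *Cd68* and *Csf1r* lie lower in every CD11c library than in any IAIE library, *Itgam* stays between 171 and 224 CPM throughout, and *Maf* is lowest in CD11c control libraries.

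The first comparison asked how macrophage identity genes differ between the populations without CGRP. In all, 5 of the 9 genes were lower in CD11c than in IAIE cells, with log2 differences from -2.11 to -0.76, and none was higher. They were the receptors *Csf1r*, *Adgre1* and *Mertk*, the transcription factor *Maf* and the lysosomal *Cd68*. The other 4 genes (*Itgam*, *Spi1*, *Cebpb* and *Lyz2*) did not pass the threshold, an adjusted p under 0.05 in edgeR. Of all genes tested, 10.9% were lower and 10.2% were higher in CD11c cells (21.2% in either direction). The median log2 difference of the 9 genes was -0.76, beside -0.02 over all genes tested. In bulk RNA, fewer cells of a type and less RNA per cell cannot be told apart.

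*Csf1r* (chromosome 18, 61100598 to 61132149, GRCm38), the receptor for CSF1 and IL-34, was the most abundant of the surface receptors per kilobase. Its level was 1551, 1491 and 1276 CPM in the IAIE control libraries (replicates 1 to 3) and 636, 631 and 517 CPM in the CD11c control libraries. The groups were far apart and did not overlap, which was also true, with lower values, of 17.5% of all genes. The log2 difference was -1.27 ± 0.148 (SE; 95% interval -1.59 to -0.96, adjusted p = 4.89e-06), 2.42-fold lower in CD11c cells. Of its exon bases, 15.1% are shared with *Hmgxb3* on the opposite strand, which had between 63 and 199 counts per library, at most 9.42% of those of *Csf1r*. Whether the counting used strand is not given in the sources used here.

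*Adgre1* (chromosome 17, 57358691 to 57483527) showed a smaller difference. It measured 527, 403 and 460 CPM in IAIE control and 279, 266 and 275 CPM in CD11c control libraries. All CD11c control libraries lay within a narrow band below the lowest IAIE library. The log2 difference was -0.76 ± 0.128 (adjusted p = 2.45e-04). *Mertk* (chromosome 2, 128698956 to 128802894) was read at 57.1, 43.3 and 29.1 CPM in IAIE control and at 13.9, 13.3 and 7.51 CPM in CD11c control libraries. The groups did not overlap although *Mertk* was the least abundant gene of the set per kilobase, with between 34 and 184 counts in a library. Its log2 difference was -1.93 ± 0.357 (adjusted p = 6.18e-04), 3.80-fold lower in CD11c cells.

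*Maf* (chromosome 8, 115682942 to 115707794) had the largest difference of the 9 genes. Its values were 161, 164 and 94.5 CPM in IAIE control and 16.3, 45.6 and 33.5 CPM in CD11c control libraries. The spread within both groups was wide, but the lowest IAIE library still held more than the highest CD11c library. The log2 difference was -2.11 ± 0.291 (adjusted p = 3.17e-05), 4.31-fold lower in CD11c cells. Of the *Maf* exon bases, 5.34% are shared with *Gm15655* on the opposite strand. *Cd68* (chromosome 11, 69664213 to 69666153) was among the tightest measurements, with 686, 720 and 659 CPM in IAIE control and 372, 301 and 343 CPM in CD11c control libraries. No CD11c library came near an IAIE library. Its log2 difference was -1.02 ± 0.121 (adjusted p = 5.66e-06), 2.03-fold lower in CD11c cells.

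The integrin chain, the remaining transcription factors and lysozyme were measured at similar levels in both populations. *Itgam* (chromosome 7, 128062640 to 128118491) lay between 171 and 196 CPM in IAIE control and between 207 and 224 CPM in CD11c control libraries, so that the groups did not overlap. Its log2 difference of 0.23 ± 0.118 did not pass (95% interval -0.01 to 0.48, adjusted p = 0.18). Among all genes tested, 16.7% had higher values without overlap in this comparison. The annotation places 68.7% of the *Itgam* exon bases in *Gm49368* on the same strand as well, and that gene had at most 9 counts in any library. *Spi1* (chromosome 2, 91082390 to 91115756) averaged 293 ± 23.8 CPM in IAIE control and 269 ± 6.84 CPM in CD11c control libraries. The 95% interval of its log2 difference, -0.38 to 0.14, spans 0 (adjusted p = 0.541). *Cebpb* (chromosome 2, 167688915 to 167690418) averaged 672 ± 58.0 CPM and 590 ± 82.2 CPM, with a log2 difference of -0.19 ± 0.134 (95% interval -0.47 to 0.09, adjusted p = 0.366). A share of 20.7% of its exon bases lies in *Tmem189* on the opposite strand.

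*Lyz2* (chromosome 10, 117277331 to 117282321) was the most abundant gene of the set per kilobase. It measured 4337, 3827 and 2948 CPM in IAIE control and 5389, 3725 and 3990 CPM in CD11c control libraries. The groups overlapped, with a log2 difference of 0.24 ± 0.147 (95% interval -0.07 to 0.54, adjusted p = 0.287). Its neighbour in sequence *Lyz1*, the lysozyme gene best known from the gut, shares 32.8% of the 31-base words of the *Lyz2* transcripts, so reads can be divided between the pair. *Lyz1* was higher in CD11c control (1196 CPM) than in IAIE control libraries (476 CPM) (log2 difference 1.33, adjusted p = 1.74e-05). *Lyz1* made up 11.2% ± 1.13 of the summed *Lyz1* and *Lyz2* CPM in IAIE control and 21.7% ± 1.89 in CD11c control libraries.

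With CGRP present in both populations, the same comparison, fitted without pairs, called 4 of the 9 genes lower in CD11c cells and none higher. Among all genes tested, 8.51% were lower and 8.36% higher. *Cd68* averaged 712 ± 56.5 CPM in IAIE CGRP and 305 ± 25.0 CPM in CD11c CGRP libraries (log2 difference -1.22 ± 0.121, adjusted p = 6.76e-07). *Csf1r* averaged 1096 ± 119 CPM and 457 ± 97.8 CPM (-1.26 ± 0.148, adjusted p = 5.33e-06). *Adgre1* averaged 403 ± 15.4 CPM and 208 ± 26.2 CPM (-0.95 ± 0.128, adjusted p = 2.45e-05). For each of these receptors and for *Cd68* no library of one population reached the range of the other. *Maf* averaged 127 ± 33.1 CPM and 65.3 ± 13.3 CPM, a log2 difference of -0.95 ± 0.273 (adjusted p = 0.0198), which no longer passed with 1 surrogate variable in the model (-0.75, adjusted p = 0.102) or without IAIE CGRP replicate 1 (-0.79, adjusted p = 0.101), IAIE CGRP replicate 3 (adjusted p = 0.0599), CD11c CGRP replicate 2 (adjusted p = 0.0876) or CD11c CGRP replicate 3 (adjusted p = 0.0584). The median log2 difference of the 9 genes was -0.92, beside 0.00 over all genes.

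*Mertk* averaged 30.8 ± 9.32 CPM in IAIE CGRP and 16.1 ± 7.33 CPM in CD11c CGRP libraries, a log2 difference of -0.92 ± 0.338 that did not pass (adjusted p = 0.0716). *Cebpb* averaged 746 ± 110 CPM and 581 ± 31.3 CPM, a log2 difference of -0.36 ± 0.133 (adjusted p = 0.0717), with no overlap between the groups. Lower values without overlap were found for 17% of all genes. Same-numbered libraries of the 2 CGRP groups deviated together, and both genes passed once the replicate number entered the fit as a block, *Mertk* at -0.92 (adjusted p = 0.027) and *Cebpb* at -0.36 (adjusted p = 0.0409), which brought the count to 6. *Itgam* (208 ± 3.49 CPM in CD11c CGRP, log2 difference 0.01, 95% interval -0.23 to 0.26, adjusted p = 0.971), *Spi1* (222 ± 16.8 CPM, -0.13, -0.39 to 0.13, adjusted p = 0.553) and *Lyz2* (2680 ± 237 CPM, -0.16, -0.46 to 0.15, adjusted p = 0.552) did not pass.

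**Figure D2:**
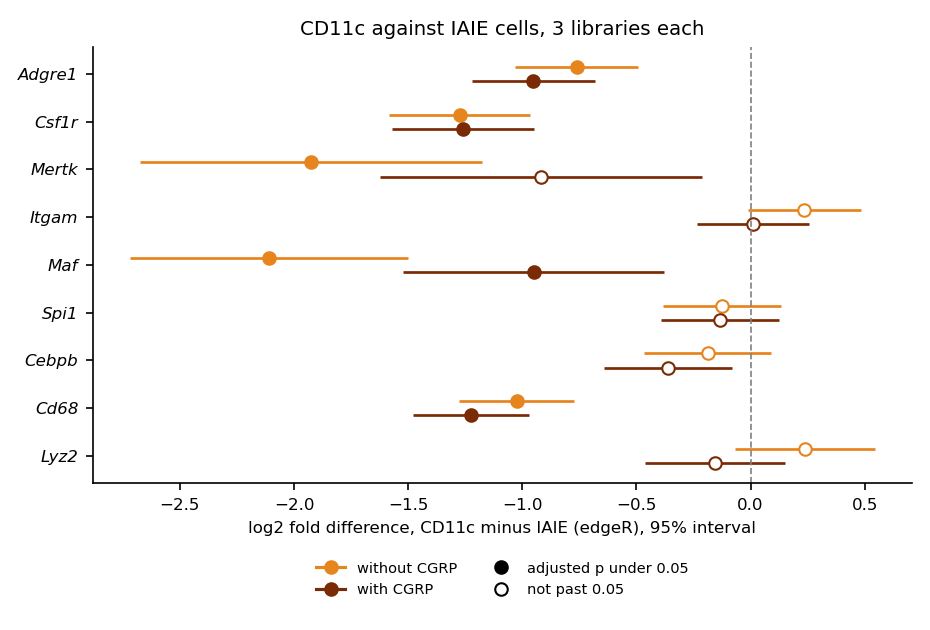
Log2 difference between CD11c and IAIE cells (horizontal axis, CD11c minus IAIE, lines for 95% intervals of the edgeR fit) for each of the 9 genes, without and with CGRP, with filled points for an adjusted p under 0.05. *Adgre1*, *Csf1r*, *Maf* and *Cd68* are filled and left of 0 in both conditions, whereas *Itgam*, *Spi1*, *Cebpb* and *Lyz2* have open points in both. The fit held no pairs of libraries.

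Markers of other cells were compared between the populations without CGRP, where 10.2% of all genes tested were higher and 10.9% lower in CD11c cells. The 12 dendritic cell markers summed to 284 to 308 CPM in IAIE control and 718 to 823 CPM in CD11c control libraries, and 6 of the 11 that could be tested were higher in CD11c cells and 2 lower. *Ccr7* and *Zbtb46*, which define migratory and conventional dendritic cells, had log2 differences of 2.52 and 2.71. The 2 lower markers were *Clec10a* (137 CPM and 61.8 CPM) and *Siglech* (9.70 CPM and 0.506 CPM). The rise of the sum lay mostly in *Cd209a* (53.6 CPM and 297.5 CPM) and *Ccr7* (42.2 CPM and 240 CPM). The 9 monocyte markers summed to 1770 to 2180 CPM in IAIE control and 569 to 703 CPM in CD11c control libraries. Of these 9, 1 was higher and 2 were lower, too few to set apart from the shares over all genes. Most of that gap lay in *F13a1*, with 1682 CPM and 436 CPM. The other lower marker was *Vcan* (95.1 CPM and 45.8 CPM), and the higher one was *Ccr2* (80.6 CPM and 127 CPM). The 7 markers of lining macrophages summed to 1500 to 2320 CPM and 616 to 809 CPM (1 higher and 5 lower of 7). The 7 B cell markers summed to 179 to 305 CPM and 39 to 57.3 CPM (0 higher and 6 lower of 7). No dendritic, monocyte, lining or B cell marker was at 0 over a whole control group. The part of these markers in the differences of the 9 genes was not tested.

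The next comparison asked whether CGRP changed these genes in IAIE cells. None of the 9 passed the threshold in edgeR, where 9.21% of all genes did (5.32% higher and 3.89% lower). At an unadjusted p under 0.05, 3 genes were lower, namely *Csf1r*, *Spi1* and *Lyz2*, and DESeq2 and limma-voom likewise called 0 of the 9. The median log2 change of the 9 genes was -0.20, beside -0.02 over all genes tested. *Csf1r* was 1184, 1143 and 961 CPM in IAIE CGRP libraries, all under the lowest control library, as were 12% of all genes. Its log2 change was -0.39 ± 0.146 (95% interval -0.70 to -0.09, adjusted p = 0.108). *Lyz2* was 3079, 3074 and 2809 CPM, which overlapped its control range. That gave a log2 change of -0.31 ± 0.147 (adjusted p = 0.223). *Spi1* lay between 213 and 268 CPM with CGRP and between 267 and 313 CPM in control libraries, and its change was -0.27 ± 0.124 (adjusted p = 0.209).

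The changes of the other 6 genes in IAIE cells had intervals that included 0. *Adgre1* (412, 412 and 385 CPM with CGRP) changed by -0.20 ± 0.127 on the log2 scale (adjusted p = 0.389), *Mertk* (41.6, 26.2 and 24.7 CPM) by -0.50 ± 0.331 (adjusted p = 0.419) and *Maf* (153, 89.7 and 136 CPM) by -0.15 ± 0.27 (adjusted p = 0.809). *Cd68* (between 649 and 758 CPM) had a log2 change of 0.05 ± 0.119 (95% interval -0.20 to 0.30, adjusted p = 0.872). *Itgam*, between 197 and 221 CPM with CGRP, lay just above its control range (12.9% of all genes were higher without overlap here), with a log2 change of 0.19 ± 0.118 (95% interval -0.06 to 0.43, adjusted p = 0.389). *Cebpb*, between 620 and 822 CPM, had 0.15 ± 0.133 (adjusted p = 0.574).

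In CD11c cells CGRP moved 2 of the 9 genes in opposite directions. *Maf* rose 2.01-fold and *Lyz2* fell to 0.614 of its control level. Of all genes tested, 6.29% were higher and 4.59% were lower with CGRP (10.9% in either direction). With 9 genes, 1 gene each way is too few to set apart from these shares. The median log2 change was -0.15, beside 0.00 over all genes, and 7 of the 9 genes had a negative log2 change.

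*Maf* reached 77.7, 51.2 and 67.1 CPM in CD11c CGRP libraries, against 16.3, 45.6 and 33.5 CPM in CD11c control libraries. Every CGRP library lay above every control library, although the lowest CGRP value was only slightly above the highest control value. Of all genes, 15.4% were higher without overlap. The log2 change was 1.01 ± 0.287 (95% interval 0.41 to 1.61, adjusted p = 0.0281). Even so, the level with CGRP stayed under that of IAIE cells, as given above. The result rested on individual libraries. It did not pass without CD11c control replicate 1 (0.73, adjusted p = 0.116), CD11c control replicate 3 (1.01, adjusted p = 0.0849), CD11c CGRP replicate 1 (0.83, adjusted p = 0.12) or CD11c CGRP replicate 3 (0.96, adjusted p = 0.08). It passed when any other single library was left out, and under both other scalings of library size, DESeq2 and limma-voom.

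Mural markers were also higher with CGRP in CD11c cells, where 6.29% of all genes tested were higher and 4.59% lower. Of the mural markers, 4 of 5 that could be tested were higher in CD11c CGRP than in CD11c control libraries and none was lower, and the 6 mural markers summed to 348, 51.7 and 179 CPM in CD11c CGRP replicates 1 to 3 against 26.2 to 31.3 CPM in the controls, where *Tagln* was at 0. *Acta2*, the actin of smooth muscle, and *Myh11*, its myosin, were 78.2 CPM and 205 CPM in CD11c CGRP replicate 1 and 47.1 CPM and 72.4 CPM in replicate 3. Both were at 0 in replicate 2, and neither was above 3.74 CPM in a CD11c control library. *Maf* was 77.7, 51.2 and 67.1 CPM in CD11c CGRP replicates 1 to 3. Of 8 fibroblast markers tested, 2 were higher (*Dcn* and *Col3a1*), 1 was lower (*Fn1*) and 5 were not called. The fibroblast sum without *Fn1* was 361, 394 and 79.0 CPM in CD11c CGRP replicates 1 to 3. With *Fn1* the sum was 2570 to 3190 CPM, against 5530 to 6430 CPM in CD11c control libraries. T and NK cell markers, of which 5 were in the files, summed to at most 3.67 CPM in CD11c libraries, with *Klrb1c* and *Cd8a* at 0 in the CGRP group. The part of stromal RNA in the change of *Maf* was not tested.

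*Lyz2* measured 2757, 2869 and 2414 CPM in CD11c CGRP libraries, all below the lowest control library, 3725 CPM. CD11c control replicate 1 was the highest of all 12 libraries. The log2 change was -0.70 ± 0.147 (95% interval -1.01 to -0.40, adjusted p = 0.00306). It was the one result of the CGRP comparisons that passed in every alternative tried, 21 of them, with adjusted p from 5.95e-07 to 0.0281 and the smallest change, -0.53, without CD11c control replicate 1. Its near-copy *Lyz1* fell in both populations (-0.71, adjusted p = 0.0112 in IAIE cells and -0.54, adjusted p = 0.0467 in CD11c cells). *Lyz1* took 23.5% ± 1.99 of the summed pair in CD11c CGRP libraries, against the 21.7% of the controls. Neutrophils also make lysozyme, and the 9 neutrophil markers summed to 18.8, 75.5 and 451 CPM in the CD11c control libraries and to 20.7, 212 and 48.0 CPM in the CD11c CGRP libraries. Within each group the sums ranged widely, and the sums of both groups overlapped. Of 8 neutrophil markers tested 1, *Csf3r*, was lower with CGRP, too few to set apart from the 4.59% of all genes that were lower. The part of neutrophil RNA in the change of *Lyz2* was not tested.

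*Adgre1* lay at the threshold. It measured 234, 209 and 182 CPM in CD11c CGRP libraries, all under the lowest control value, 266 CPM. The log2 change of -0.39 ± 0.128 (95% interval -0.66 to -0.12) had an adjusted p of 0.0571, and lower values without overlap were found for 13.8% of all genes. It passed in 10 of 21 alternatives, 1 of them only a looser threshold, among them RLE scaling (adjusted p = 0.0469), DESeq2 (adjusted p = 0.018) and limma-voom (adjusted p = 0.0252), and its adjusted p rose to 0.211 without CD11c CGRP replicate 3. *Csf1r* was 569, 386 and 417 CPM with CGRP, a range that overlapped its controls through replicate 1. That gave -0.38 ± 0.147 (adjusted p = 0.115), and -0.60 (adjusted p = 0.00947) without that library. *Mertk*, at 23.0, 8.42 and 16.9 CPM, overlapped its controls with a log2 change of 0.51 ± 0.359 (95% interval -0.24 to 1.26, adjusted p = 0.457).

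**Figure D3:**
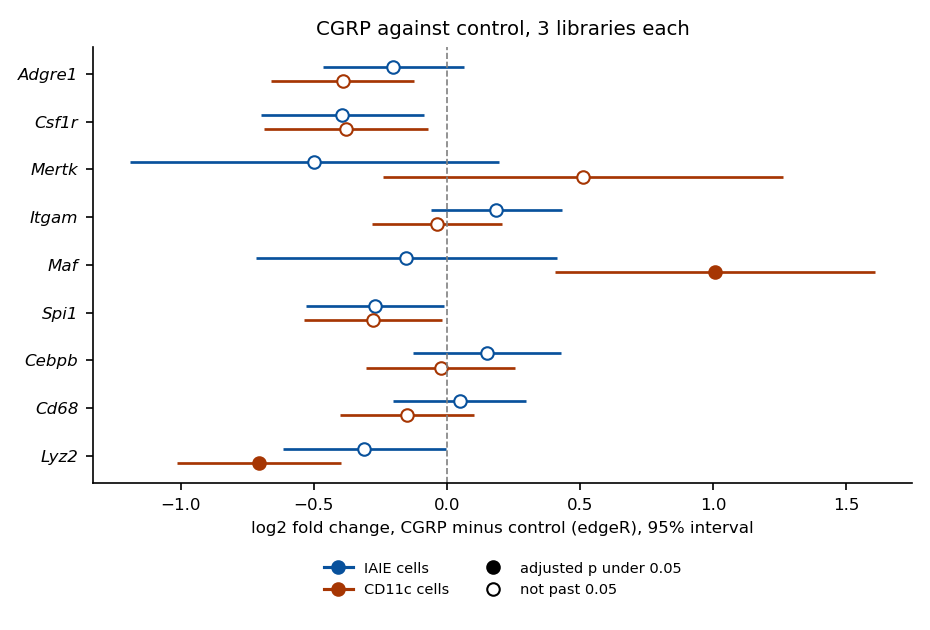
Log2 change with CGRP (horizontal axis, CGRP minus control, lines for 95% intervals of the edgeR fit) of each of the 9 genes in IAIE and in CD11c cells, with filled points for an adjusted p under 0.05. The filled points are *Maf* at 1.01 and *Lyz2* at -0.70, both in CD11c cells, and all points of IAIE cells are open.

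The remaining genes did not pass in CD11c cells. *Spi1* lay between 206 and 240 CPM with CGRP, below all its control libraries (261 to 274 CPM), with a log2 change of -0.28 ± 0.124 (adjusted p = 0.186) that was close in size to that in IAIE cells. *Cd68* lay between 280 and 330 CPM (-0.15 ± 0.12, 95% interval -0.40 to 0.10, adjusted p = 0.533). *Itgam* stayed between 204 and 211 CPM (-0.04 ± 0.117, 95% interval -0.28 to 0.21, adjusted p = 0.905), and *Cebpb* between 545 and 601 CPM (-0.02 ± 0.133, 95% interval -0.30 to 0.26, adjusted p = 0.951).

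**Figure D4:**
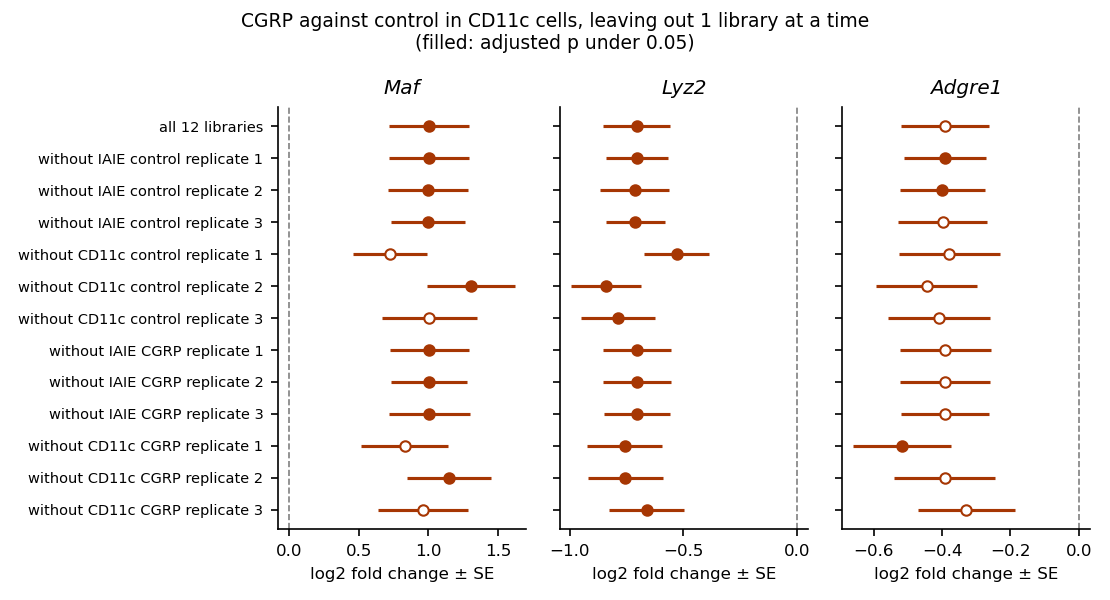
Log2 change with CGRP in CD11c cells ± SE (horizontal axes) for *Maf*, *Lyz2* and *Adgre1*, from all 12 libraries (top row) and with 1 library left out at a time (other rows), with filled points for an adjusted p under 0.05. *Lyz2* is filled in every row, *Maf* is open in 4 rows and *Adgre1* changes between open and filled.

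Whether CGRP acted differently on these genes in the CD11c and IAIE cells was tested as an interaction, the log2 change in CD11c cells minus that in IAIE cells. None of the 9 genes passed (0.151% of all genes did, 0.134% higher and 0.0168% lower) in edgeR, DESeq2 or limma-voom. At an unadjusted edgeR p under 0.05 there was 1, *Maf*, with 1.16 ± 0.394 (95% interval 0.33 to 1.98, adjusted p = 0.351). It passed in 1 alternative, with every gene of at least 1 count kept in the fit (1.08, adjusted p = 0.00441). For *Mertk* the difference was 1.01 ± 0.488 (95% interval -0.01 to 2.03, adjusted p = 0.575) and for *Lyz2* -0.39 ± 0.207 (95% interval -0.83 to 0.04, adjusted p = 0.625). For *Csf1r* and *Spi1* it was 0.01 and -0.01, with 95% intervals of -0.42 to 0.45 and -0.37 to 0.36. The rise of *Maf* in CD11c cells is therefore not shown to differ from its change in IAIE cells.

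A list of 25 other core macrophage genes, from phagocytic receptors to complement subunits, was set beside the 9. For this list and those below, the shares over all genes tested apply. Without CGRP 10.9% were lower and 10.2% higher in CD11c cells, and with CGRP 8.51% and 8.36%. CGRP raised 5.32% and lowered 3.89% in IAIE cells, and raised 6.29% and lowered 4.59% in CD11c cells. In lists this short, counts of 1 or 2 genes are too few to set apart from these shares. Without CGRP, 15 of the 25 were lower in CD11c than in IAIE cells and 3 were higher, with a median log2 difference of -1.09. The largest of the named differences were in scavenger receptors, *Stab1* (592 CPM against 112 CPM, -2.39, adjusted p = 7.03e-09) and *Msr1* (-2.25, adjusted p = 5.33e-07), and the tetraspanin *Cd63* also passed (-1.41). With CGRP, 16 were lower and 0 higher in the same comparison, with a median log2 difference of -1.28. CGRP itself changed 4 of the 25 genes upwards and 4 downwards in IAIE cells, and 6 upwards and 5 downwards in CD11c cells. *Fcgr1*, the high-affinity Fc receptor CD64, rose from 105 CPM to 274 CPM in IAIE cells (1.38, adjusted p = 6.97e-04) and from 37.7 CPM to 132 CPM in CD11c cells (1.78, adjusted p = 5.96e-05). *Msr1* (0.99, adjusted p = 0.00244 in IAIE cells and 1.40, adjusted p = 1.68e-04 in CD11c cells) and *Lgals3*, a galectin (0.63 and 0.35), also rose in both. *Cd163*, the haemoglobin scavenger receptor (-1.05, adjusted p = 0.00122 and -1.07, adjusted p = 9.25e-04), and *Laptm5*, a lysosomal membrane protein of leukocytes (-0.47 and -0.72), fell in both.

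**Figure D5:**
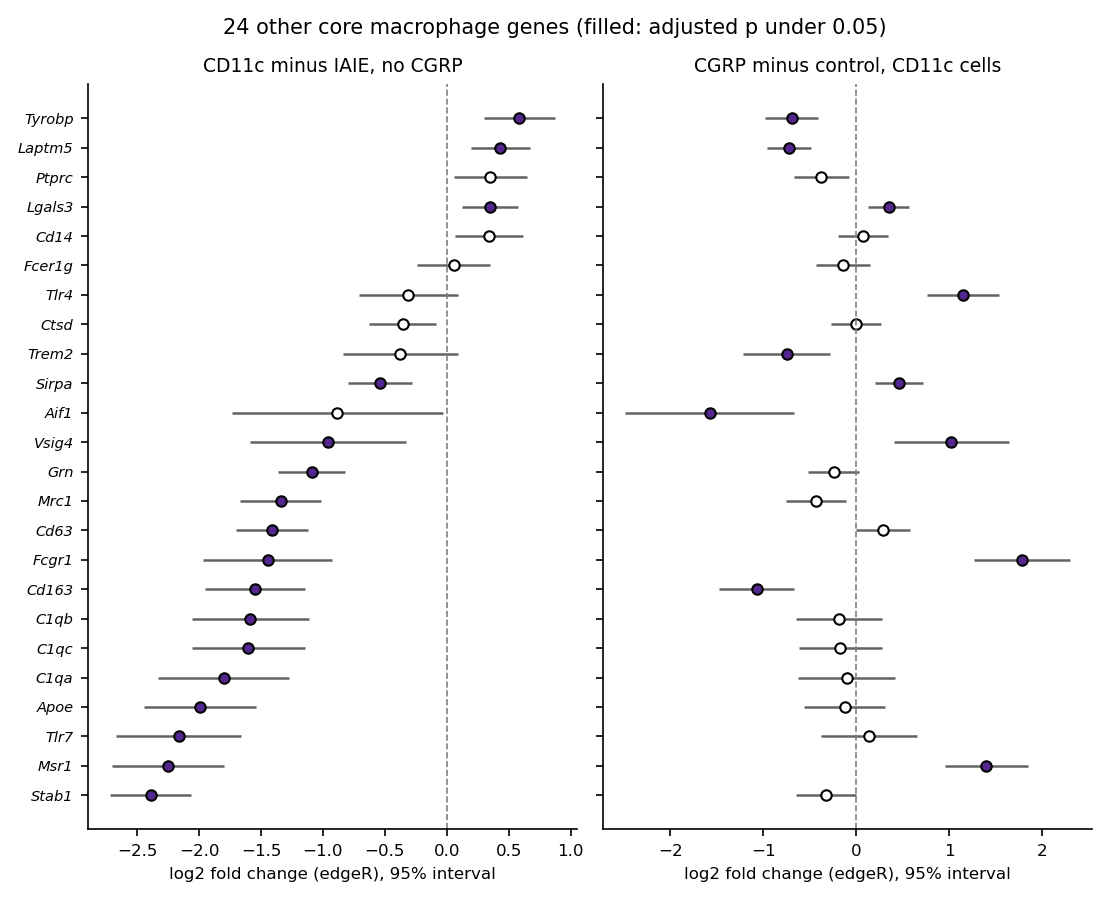
Log2 values with 95% intervals (horizontal axes) of 24 of the 25 other core macrophage genes, ordered by the difference between CD11c and IAIE control libraries (left panel) and shown in the same order for CGRP against control in CD11c cells (right panel), with filled points for an adjusted p under 0.05. On the left 14 filled points lie below 0 and 3 above, whereas on the right 5 lie below and 6 above.

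Among 28 further myeloid transcription factors, 11 were lower and 4 higher in CD11c than in IAIE control libraries, and 12 and 6 with CGRP. *Irf8*, needed for monocyte and dendritic cell development, was lower (-1.97, adjusted p = 5.33e-07), whereas *Bhlhe40* (1.28) and *Zbtb46* (2.71) were higher. CGRP lowered 8 and raised 1 of the 28 in IAIE cells, and lowered 7 and raised 2 in CD11c cells. *Klf2*, a factor of quiescence, fell in both (-0.83, adjusted p = 4.13e-04 and -1.29, adjusted p = 4.3e-06), as did *Irf4* (-0.81 and -1.12) and *Pparg* (-0.94, adjusted p = 0.0348 and -1.77, adjusted p = 1.54e-04). In IAIE cells *Irf8* fell too (-0.79), with -0.56 in CD11c cells (adjusted p = 0.073).

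The closest paralogues of the 9 genes were described next. *Spic*, a relative of *Spi1* known from red pulp macrophages, rose with CGRP in CD11c cells from 14.0 CPM to 37.7 CPM (1.38, adjusted p = 0.00322). *Adgre5* (CD97), the sister receptor of *Adgre1*, fell with CGRP in both populations, from 332 CPM to 146 CPM in IAIE cells (-1.19, adjusted p = 1.37e-05) and from 365 CPM to 145 CPM in CD11c cells (-1.32, adjusted p = 3.67e-06). *Flt3*, a relative of the receptor for CSF1, fell from 9.22 CPM to 2.03 CPM in IAIE cells (-2.20, adjusted p = 0.0241) and from 18.6 CPM to 4.46 CPM in CD11c cells (-2.03, adjusted p = 0.0169). In IAIE cells the ranges of both groups met at 3.44 CPM, and no CGRP library held more than 13 *Flt3* counts. Of 18 paralogues tested, CGRP lowered 5 and raised 0 in IAIE cells, and lowered 7 and raised 1 in CD11c cells. Between the populations 6 were lower and 4 higher in CD11c control libraries, and 7 and 4 with CGRP.

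The pathways through which these receptors act were covered by lists of their ligands and partners. Of 17 tested CSF receptor and signalling genes, 8 were higher and 5 lower in CD11c control than in IAIE control libraries. *Csf2rb*, the shared chain of the GM-CSF receptor, averaged 2003 CPM and 660 CPM (1.60, adjusted p = 8.66e-07), whereas *Csf3r*, the G-CSF receptor and also a neutrophil marker, averaged 18.0 CPM and 50.8 CPM (-1.50) and the phosphatase *Inpp5d* 112 CPM and 216 CPM (-0.95). With CGRP 6 were higher and 3 lower, among them *Csf2rb2* (1.39). CGRP lowered 4 and raised 0 in IAIE cells and lowered 6 and raised 1 in CD11c cells. The kinase *Fgr* fell in both (-1.23, adjusted p = 0.00116 and -1.83, adjusted p = 8.95e-06), as did *Plcg2* (-0.68 and -0.74) and *Csf2ra* (-0.64 and -0.64). The adaptor *Dab2* rose in CD11c cells (1.10, adjusted p = 4.98e-05), with 0.37 in IAIE cells (adjusted p = 0.138).

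Around *Mertk*, 16 genes of the TAM receptors (TYRO3, AXL, MERTK) and of apoptotic cell uptake were tested. *Gas6*, a ligand of all 3 receptors, averaged 266 CPM in IAIE control and 67.1 CPM in CD11c control libraries (-2.01, adjusted p = 9.71e-05), and the cholesterol exporter *Abca1* also passed (-0.96). In all 7 were lower and 3 higher, and with CGRP 5 and 2, the ligand *Pros1* among the lower ones (-1.33, adjusted p = 8.82e-06). CGRP raised 2 and lowered 3 of the 16 in IAIE cells and raised 4 and lowered 2 in CD11c cells. The scavenger receptor *Cd36* rose in both (0.76, adjusted p = 9.63e-04 and 1.50, adjusted p = 1.32e-06), and *Dock2*, a regulator of actin in leukocytes, fell in both (-0.85 and -1.78), as did *Pros1* (-0.63, adjusted p = 0.0141 and -0.95, adjusted p = 6.32e-04). *Stab1* fell in IAIE cells (-0.75), with -0.32 in CD11c cells (adjusted p = 0.217).

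Of 12 integrin and adhesion genes tested beside *Itgam*, 5 were higher and 0 lower in CD11c control libraries, and 4 and 0 with CGRP. They included *Itgal* (1.49, adjusted p = 0.00362) and *Itgb7* (1.44, adjusted p = 3.72e-04) without CGRP and *Itga4* (0.89) with CGRP, besides *Itgax*, which was used for the sort. *Itgb2*, the beta chain that pairs with CD11b and was chosen after its values were seen, averaged 920 CPM in IAIE control and 1204 CPM in CD11c control libraries (0.39, adjusted p = 0.0361). CGRP raised 1 and lowered 3 in IAIE cells and raised 1 and lowered 4 in CD11c cells. *Itgav* rose in both (0.80 and 0.78), and *Itga4* (-1.01 and -0.74) and *Itgal* (-1.35 and -1.59) fell in both. *Icam1* fell in IAIE cells (-0.77) and measured -0.50 in CD11c cells (adjusted p = 0.0935), and *Itgb7* fell in CD11c cells (-1.39) and measured -0.69 in IAIE cells (adjusted p = 0.108).

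Beside *Cd68* and *Lyz2*, 15 lysosomal and secreted myeloid proteins were tested. In CD11c control libraries 4 were lower and 2 higher than in IAIE control libraries, the cathepsins *Ctsb* (2300 CPM against 4764 CPM, -1.05, adjusted p = 7.26e-07) and *Ctsl* (-1.57) among the lower. With CGRP 9 were lower and 1 was higher. CGRP raised 2 and lowered 1 of the 15 in IAIE cells, against 5.32% higher and 3.89% lower among all genes tested. There CGRP raised *Npc2*, a cholesterol carrier (0.66, adjusted p = 0.00213), and *Ctsl* (0.63). In CD11c cells it raised 1, again *Npc2* (0.49, adjusted p = 0.0154), and lowered 4, among them *Hexa* (-0.70, adjusted p = 0.0013), *Psap* (-0.49) and *Cst3* (-0.56). None of the macrophage, transcription factor, CSF, TAM, integrin, lysosomal and paralogue lists held a gene past the threshold in the interaction.

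The genes whose pattern over the 12 libraries was most like that of a member were found by the root mean square difference of log2(CPM + 1), each gene centred on its own mean, among 8461 candidates with a mean of at least 5 CPM. This was done for the 5 members whose group means spanned at least 1 log2 unit. *Csf1r* was closest to *Mrc1* (0.101), the mannose receptor CD206, then to *Mtss1* (0.119) and *Pmp22* (0.135). *Cd68* was closest to *Mtmr10* (0.124), *Arhgef3* (0.129) and *Grn* (0.130), the lysosomal progranulin. For *Adgre1* they were *Por* (0.111), *Fnip1* (0.129) and *Emp1* (0.134). The patterns of *Mertk* and *Maf* had no such close neighbours, but this distance includes the spread within groups. The SD within a group reached 45.5% of the mean for *Mertk* and 46.3% for *Maf*. It reached 10.7% for *Cd68*, 13.3% for *Adgre1* and 21.4% for *Csf1r*. The nearest to *Mertk* were *Igfbp4* (0.27), *Plau* (0.283) and *Tns1* (0.3), and those to *Maf* were *Pde7b* (0.291), *Egfr* (0.327) and *Dusp6* (0.352).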

How the data were processed

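Total RNA of 12 sorted samples was sequenced as paired reads after library preparation from 5 ng RNA with a stranded kit. Per the study's methods and the submitters' processing notes, the authors trimmed reads (Trim Galore, FastQC), aligned to mm10 (HISAT2) and counted reads per gene (featureCounts). Versions, gene annotation and strand setting are not given in the sources used here. The deposited values are raw counts per gene symbol. A combined table repeated the 12 count files, and its 6 further columns were not used.

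Group means were fitted to all 12 libraries at once by quasi-likelihood in edgeR (4.0.16, R 4.3.3), after filterByExpr (minimum count 10, minimum total 15) and TMM scaling. Adjusted p-values are Benjamini-Hochberg values over 11927 genes and come from this fit unless another tool is named; genes under 0.05 are counted as past the threshold. SE was |log2 change| divided by the square root of F. The 9 genes and all lists were chosen with earlier results of these data known. Named list genes are up to 3 per list and comparison with the smallest p, and genes that the rule picks but the text omits are not reported here. Lists cover the core macrophage, transcription factor, CSF, TAM, integrin, lysosomal and paralogue genes and the markers of dendritic, monocyte, neutrophil, lining, fibroblast, endothelial, mural, mast, B and T or NK cells. Exon lengths and overlaps were taken from GENCODE vM21 (GRCm38, the build of mm10). The study's own tools, DESeq2 (1.42.0) and sva (3.50.0), were tried as alternatives with limma-voom (3.58.1), other scalings and filters, replicate and explant blocks, and leaving out each library.

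Labels do not tie replicate numbers to explants. For 5411 genes, the deviations of CGRP libraries with the same number in IAIE and CD11c cells had correlations of 0.332, 0.128 and 0.205, each over 0.1. These libraries were taken as paired only in the replicate and explant blocks, tried as alternatives. The main fit held no pairs. No other comparison had every number over 0.1. The fit was also run on simulated counts drawn from the means and spread of these data, after the main results, and the outcome is not reported here. Depth is given per library, and PCR reads without molecular identifiers make floors cover counting error only.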

Additional observations from a re-analysis of the deposited data

How the results depend on the processing

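Over 9 genes and 5 comparisons, 907 of 963 alternative values kept their direction and side of the threshold, 9 lost and 27 gained the threshold, and 20 changed sign. In the comparison of populations without CGRP, 5 genes passed in all 22 alternatives. With CGRP the count lay between 3 and 6, and with a library left out between 3 and 5. With the replicate block, 1 gene passed for CGRP in IAIE cells (*Csf1r*, -0.39, adjusted p = 0.0338) and 4 in CD11c cells (with *Adgre1*, adjusted p = 0.0312, and *Csf1r*, adjusted p = 0.034). In those comparisons same-numbered libraries did not correlate throughout (IAIE 0.0746, -0.0386 and -0.0251, CD11c 0.187, 0.115 and -0.0122), so they were not taken as pairs. The block changed no further call of the 9 genes beyond *Mertk* and *Cebpb* between populations with CGRP. The explant block also gave 6 there. With every gene of at least 1 count kept, 1 gene (*Maf*) passed in the interaction. Without 1 library, 1 to 3 genes passed for CGRP in CD11c cells (1 without CD11c control replicate 1 or 3 or CD11c CGRP replicate 3, where *Lyz2* alone passed), while IAIE cells and the interaction stayed at 0.

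The sign changes were all in values near 0 that passed no threshold. *Cd68* with CGRP in IAIE cells became -0.0034 under upper-quartile scaling, and *Cebpb* with CGRP in CD11c cells became 0.00080 with 1 surrogate variable. The interaction of *Csf1r* became -0.056 with every gene kept and -0.0040 with 1 surrogate variable. With 1 library left out, *Maf* with CGRP in IAIE cells ranged from -0.34 to 0.051, *Cebpb* in CD11c cells from -0.12 to 0.063, *Itgam* between populations with CGRP from -0.017 to 0.067, and the interactions of *Csf1r* and *Spi1* from -0.22 to 0.12 and from -0.12 to 0.054. The cause of these changes was not tested. Counts of called genes per list kept within 1.5 times in 703 of 749 values, and 28 of 1695 values of named list genes lost the threshold, with 0 changes of sign. With 3 libraries a group, the SE of *Mertk* (34 to 184 counts per library) was 0.331 to 0.359 in the pairwise comparisons, against 0.127 to 0.128 for *Adgre1*.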

Other observations

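Of the marker lists not described above, endothelial genes summed to between 12.7 and 180 CPM over all libraries, the highest value in a single CD11c control library. Mast cell markers summed to between 0.729 and 143 CPM, with *Kit* alone called of 5 tested, higher in CD11c than in IAIE cells without CGRP (1.95, adjusted p = 0.0232) and with it (4.05, adjusted p = 2.67e-04). *Kit* averaged 0.774 CPM in IAIE CGRP libraries (at most 5 counts), near the floor, and 13.1 CPM in CD11c CGRP libraries. The dendritic cell list holds *Kit* as well. Of the T and NK cell markers 1 could be tested, *Cd4*, and it passed in no comparison. Monocyte markers called with CGRP were *Ms4a4c* in both populations (1.50 and 1.29) and the matrix proteoglycan *Vcan* in CD11c cells (1.61, adjusted p = 0.0036). *Cd209a*, a lectin of monocyte-derived dendritic cells, fell with CGRP in CD11c cells from 297 CPM to 79.3 CPM (-1.91, adjusted p = 2.26e-06), whereas *Ccr7* rose from 240 CPM to 576 CPM (1.26, adjusted p = 5.32e-05). Of 7 lining macrophage markers, CGRP lowered 2 in IAIE cells (*Cd163* and *Cx3cr1*) and lowered 2 and raised 1 in CD11c cells (*Cd163* and *Trem2*, and *Vsig4*). Among B cell markers, *Ighm* was lower with CGRP in IAIE cells (-0.82, adjusted p = 0.0302) and in CD11c cells (-2.02, adjusted p = 5.72e-05).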
